A study of Mus musculus with 35 samples.

Results

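Cross-linking of SRSF1 to RNA was compared with that of 6 other classical SR proteins, SRSF2 to SRSF7. The members were the 4 libraries titled as SRSF1, set against the 24 libraries titled as SRSF2 (5), SRSF3 (3), SRSF4 (3), SRSF5 (4), SRSF6 (3) and SRSF7 (6), so 28 of the 35 samples of the series. The remaining samples were 3 libraries of NXF1, the main nuclear export receptor of mRNA, and 4 of a GFP control that were deposited as 1 pooled file. All were iCLIP libraries, a form of cross-linking and immunoprecipitation that resolves single bases. Ultraviolet light at 254 nm couples a protein to RNA that it touches, an antibody retrieves the protein, and the cDNA made from the RNA ends beside the coupled base. All were made in P19 cells, a mouse embryonal carcinoma line with features of early embryo cells. Each SR protein or NXF1 line carried its protein with a GFP tag on a bacterial artificial chromosome, integrated stably in addition to the untagged gene of the cell. The control line expressed GFP with a nuclear localization signal (GFP-NLS), and all proteins were precipitated with an antibody against GFP. By the labels, each protein was thus measured in a line of its own, and a difference between proteins cannot be told apart from a difference between lines. For SRSF2 replicates 2 and 5 this is uncertain, since their file headers name SRSF1. The sources used here do not say that the libraries of a protein came from separate cultures, and the spread that the p-values rest on may be technical.

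SRSF1 (also ASF/SF2) is the founding member of the SR protein family. It has a pair of RNA recognition motifs and a tail rich in arginine and serine, promotes the inclusion of exons through purine-rich exonic splicing enhancers, and is also known to shuttle to the cytoplasm and to act in export, translation and nonsense-mediated decay. Its known binding motifs are built around GGA and GAAGA, whereas SRSF3 is known for pyrimidine-rich motifs such as CTTC, SRSF7 for GAC repeats, and SRSF2 for both G-rich and C-rich motifs.

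A tag is 1 listed cDNA at a cross-link position. Only positions that passed a per-library density threshold were deposited, so a total of tags is not a sequencing depth and a level of 0 says only that no position passed there. The SRSF1 libraries, replicates 1 to 4, held 703367, 246270, 86924 and 14900 tags. The other 24 held 13038 to 4459523, with a median of 455429, and the pooled control held 21880. In SRSF1 replicate 4 a level in CPM (tags scaled to a library total of 1e+06) rests on steps of 67.1 CPM for each tag, against 1.42 in replicate 1. Of 46 pairs of libraries of the same protein, 6 of them SRSF1 pairs, none was a duplicate: chi-square per degree of freedom over genes was 7.25 to 35.8. In 2 libraries labelled SRSF2, replicates 2 and 5, the file headers name SRSF1. In the flanks of the Srsf2 gene these had 93.7 and 125 CPM, against 2954, 2055 and 7696 CPM in the libraries labelled SRSF2 replicates 1, 3 and 4. Purines made up 47.8 and 47.9% of the bases around their positions, within the range of the other SRSF2 libraries (46.3 to 48.6%). Both libraries were kept as labelled, and counts without them are given beside the results. Header dates put all SRSF1, SRSF3 and SRSF4 libraries and SRSF7 replicates 4 to 6 in 2014, and the other SR protein libraries in 2013, so year and protein cannot be told apart for SRSF2, SRSF5 and SRSF6. The lanes named in the 2014 headers were 2 and 3 for SRSF1, 4 and 5red for SRSF3 and SRSF4, and 1 for SRSF7. No other SR protein library thus shared both year and lane with SRSF1, and lane and protein cannot be told apart in any contrast. Of 10 genes that mark embryonal carcinoma cells, 9 had SRSF1 tags (Zfp42 had none), and their summed level was 201 to 3549 CPM in the SRSF1 libraries. Neuron and glia markers summed to at most 4.27 CPM there, with Map2, Neurod1, Gfap and Olig2 at 0, and endoderm and mesoderm markers to at most 23.0 CPM, with Gata6, Sox17, Afp and Myh6 at 0.

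The gene of the tagged protein was listed at 3540, 2907, 2611 and 134 CPM in the SRSF1 libraries, and at 0 to 2997 CPM with a median of 877 in the other 24. The first 3 SRSF1 libraries were high and replicate 4, where the value is 2 tags, was low, so the groups overlapped. The log2 difference was 1.38 ± 1.02 (SE, n = 4 and 24) and did not pass the test (adjusted p = 0.49, limma voom with Benjamini-Hochberg adjustment). Tags in Srsf1 come from both the tagged and the untagged copy.

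SRSF1 cross-links lay in sequence richer in GGA and poorer in runs of pyrimidines than those of the other 6 proteins together. For each listed position, the pentamers within 15 nt on the tag strand were scored, and each position was counted once. Of all possible pentamers, 257 (25.1%) differed: 106 (10.4%) were higher and 151 (14.7%) lower in SRSF1 than in the mean of the other 6 proteins, at an adjusted p below 0.05 from limma on log2(percent of positions + 0.1), a scale that understates the change of rare pentamers. GGA marked the higher side: 40 of the 48 pentamers that hold it were higher and 0 lower, with a median log2 difference of 0.42 against -0.05 over all pentamers. All 12 GGA pentamers made only of A and G were higher, but only 6 of 20 A and G pentamers without GGA were. Pentamers with GAA and no GGA were higher in 5 of 40. On the other side, 30 of 32 pentamers made only of C and T were lower, with a median of -0.48. Purines made up 52.6, 52.2, 52.0 and 55.5% of the bases around SRSF1 positions, above the range of 41.7 to 51.6% in the other libraries and the 50.6% of the pooled control. Without the repeated sequences described below as matching positions, SRSF1 was at 52.5, 51.9, 50.8 and 50.8%, and replicates 3 and 4 were below all 3 SRSF6 libraries (50.9 to 51.6%).

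GAGGA had the smallest p. It lay near 9.74, 9.94, 10.3 and 17.3% of positions in SRSF1 replicates 1 to 4. In the other 24 libraries it lay near 2.42 to 7.96%, with a median of 6.09%, and in the control near 5.70%. All 4 SRSF1 libraries were above all 24 others, and replicate 4 was far above the rest. The log2 difference was 1.07 ± 0.13 (SE, n = 4 and 24; adjusted p = 2.8e-06), and it also passed against each of the 6 proteins singly, with the highest adjusted p (0.044) against SRSF6. AGGAC varied far less between the SRSF1 libraries, at 4.98, 4.89, 4.95 and 5.53% against 2.23 to 4.06% in the others. Its log2 difference was 0.69 ± 0.09 (adjusted p = 2.8e-06), and it passed against each protein except SRSF6 (adjusted p = 0.060). GGACA was at 4.66, 4.39, 4.34 and 4.62% against 2.13 to 3.54%, a log2 difference of 0.65 ± 0.08 (adjusted p = 4.3e-06) that passed against each of the 6. For 4 further pentamers, AAAGG (log2 difference 0.41), then CAAGG (0.41), also GGAGC (0.65) and ATGCG (0.44), all SRSF1 libraries were above all others, and for CCATA (-0.30) all were below.

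Among the other top pentamers on the higher side, AGGAA had a log2 difference of 0.66, that of AGGGA was 0.44, and GGAAG had 0.54. The largest of these were 1.05 for AAGGA and 0.91 for CAGGA, and AAAGG and CAAGG completed the 10. Against SRSF6 alone, AGGAA (log2 difference -0.030) and GGAAG (-0.12) had the opposite sign. The top 10 on the lower side were GTTCC and 9 pentamers made only of C and T, with differences of -0.59 to -0.39. GTTCC was at 2.33, 2.26, 2.52 and 2.09% in SRSF1 against a median of 3.03% in the others. TTCCT was at 4.53, 4.38, 3.86 and 2.77% against 5.65%. All 9 passed against SRSF3 alone, none of them against SRSF4 alone (adjusted p = 0.059 to 0.26), and only TTCTC against SRSF7 alone (0.0495). For all of these but GTTCC, the highest level was in an SRSF3 library.

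The 6 pentamers listed as SRSF1 motifs did not all follow the same course. AGGAG (9.01, 9.68, 11.7 and 27.6%) and GGAGG (7.71, 8.32, 11.4 and 25.5%) rose as the library total fell, with log2 differences of 1.17 ± 0.23 and 1.16 ± 0.24. GGAGA ran the other way, at 7.31, 6.75, 5.62 and 4.05%, and was still called higher (0.41 ± 0.11, adjusted p = 0.0088). GAAGA was at 10.8, 10.05, 7.22 and 5.96%, and the level of AGAAG was 9.41, 8.65, 6.03 and 5.57%. Neither passed (adjusted p = 0.25 and 0.099), and the SRSF6 libraries had higher means for both, at 11.99 and 10.7%. Of the 3 SRSF7 motifs, all parts of a GAC repeat, 0 passed in either direction. Of the 4 SRSF3 motifs, TCTTC (log2 difference -0.53) was lower, as was CTTCC (-0.58), and the other 2 did not pass. Of the 4 SRSF2 motifs, GGTGG (0.39) was higher, as was GGAGC, while CCTGC (-0.43) was lower.

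A few repeated sequences held a large share of the SRSF1 tags. Positions within 30 nt of a 12-nt run shared with the annotated 5.8S rRNA genes or with 1 region in an intron of Sltm, here called matching positions, took 6.86, 15.5, 28.4 and 40.3% of the SRSF1 tags and 0.566 to 24.9% of the tags in the other libraries. Counted once each, as for pentamers, they were 1.07, 2.77, 9.15 and 31.6% of SRSF1 positions and 0.294 to 11.6% of positions in the other libraries. Without them, 118 pentamers were higher and 77 lower, 47 of the 48 GGA pentamers were higher, and 27 of 32 pyrimidine pentamers were lower. GAGGA then lay near 9.49, 9.07, 7.37 and 6.32% of SRSF1 positions. This no longer rose in replicate 4, and 3 of the 24 other libraries were above the lowest SRSF1 value. AGGAC (4.94, 4.82, 4.73 and 5.12%, others at most 4.03%) and GGACA (4.64, 4.36, 4.23 and 4.43%, others at most 3.41%) kept all 4 SRSF1 libraries above all others. Without SRSF1 replicate 4, the counts were 60 higher and 26 lower, with 36 of the GGA pentamers higher. Without SRSF2 replicates 2 and 5 they were 95 and 126.

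In coding sequence alone the contrast was the same in kind. There, 95 pentamers were higher and 136 lower, with 36 of 48 GGA pentamers higher and 19 of 32 pyrimidine pentamers lower. All 6 SRSF1 motifs were higher. GAGGA lay near 12.1, 13.1, 14.3 and 11.3% of coding positions in the SRSF1 libraries, and 1 of the other 24 exceeded the lowest of these. AGGAC was at 5.76, 6.10, 7.66 and 10.3%, above all 24 others (at most 5.47%).

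The share of positions near any of the 6 SRSF1 motifs put the proteins in order. It was 30.7, 29.97, 29.2 and 41.2% for SRSF1. SRSF6 was next at 28.6 to 30.04%, overlapping the first 3 SRSF1 libraries, with 1 of its 3 libraries inside their range, followed by SRSF7 (23.1 to 26.7%) and SRSF4 (23.7 to 26.4%), which overlapped each other. SRSF2 (19.9 to 21.96%) and SRSF5 (18.4 to 21.9%) overlapped too, and SRSF3 was lowest at 12.4 to 12.8%. SRSF2 replicates 2 and 5, whose headers name SRSF1, were at 20.3 and 20.7%, within the range of the other SRSF2 libraries. The control was at 23.2%. Without matching positions the SRSF1 libraries were at 30.4, 28.8, 24.9 and 24.1%, with replicates 3 and 4 below SRSF6 at 28.5 to 29.9%.

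**Figure D1:**
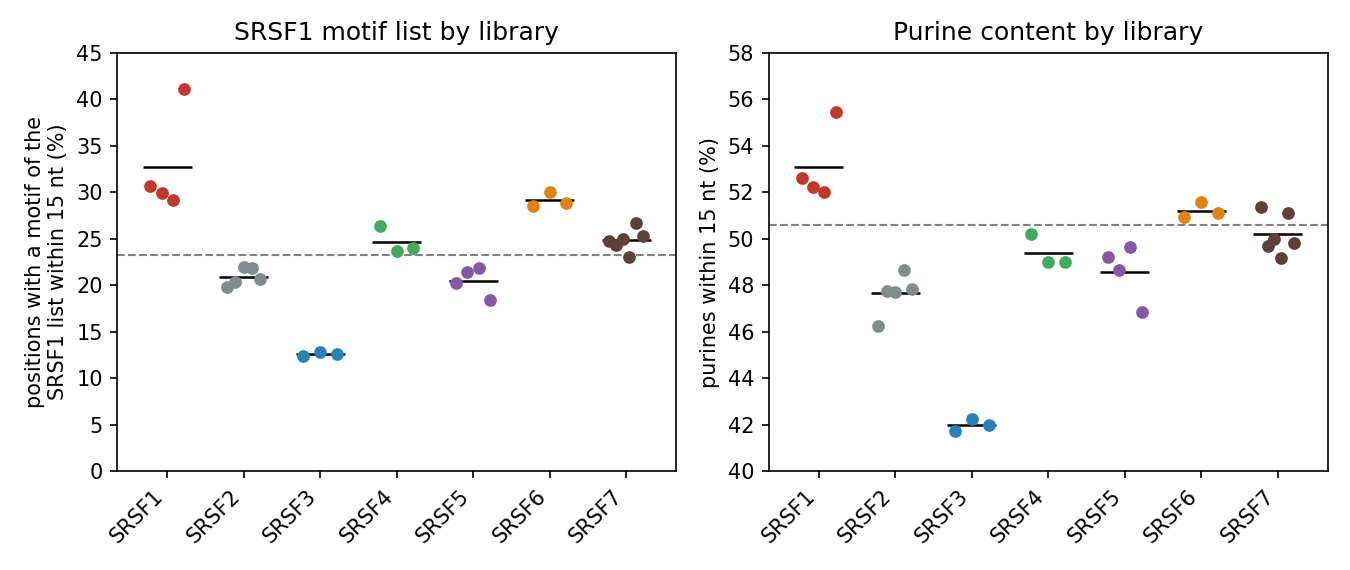
Percent of listed positions with any of the 6 SRSF1 motifs within 15 nt (left) and percent of purines within 15 nt (right) in each of the 28 SR protein libraries, grouped by protein along the horizontal axes, with 1 point per library and the pooled control as a dashed line. SRSF1 and SRSF6 lie highest on the left, SRSF3 lowest at 12.4 to 12.8%, and on the right the SRSF1 libraries, at 52.0 to 55.5%, lie above all others, which no longer holds without matching positions, where replicates 3 and 4 (50.8%) fall below SRSF6.

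The motifs were most frequent just downstream of the cross-link in the SRSF1 libraries, and in others too. Distances were measured from the cross-linked base to the middle base of a motif. Summed over the 6 motifs, the percent of positions with a motif centred at a given distance peaked at 5, 5, 10 and 12 nt in SRSF1 replicates 1 to 4. These maxima were 2.90, 2.92, 2.71 and 5.23%, against 1.88, 1.79, 1.44 and 1.36% in the flanks. The control had its maximum 11 nt downstream, at 2.18% against 0.932% in its flanks, a higher ratio (2.34) than in SRSF1 replicates 1 to 3 (1.54, 1.63 and 1.88). SRSF4, SRSF6 and SRSF7 libraries had theirs 5 to 17 nt downstream, at 1.88 to 2.92%. Among SRSF1 libraries the maximum was highest and farthest from the cross-link in replicate 4, where matching positions made up 31.6% of the listed positions. The part of those positions in the peak was not tested.

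**Figure D2:**
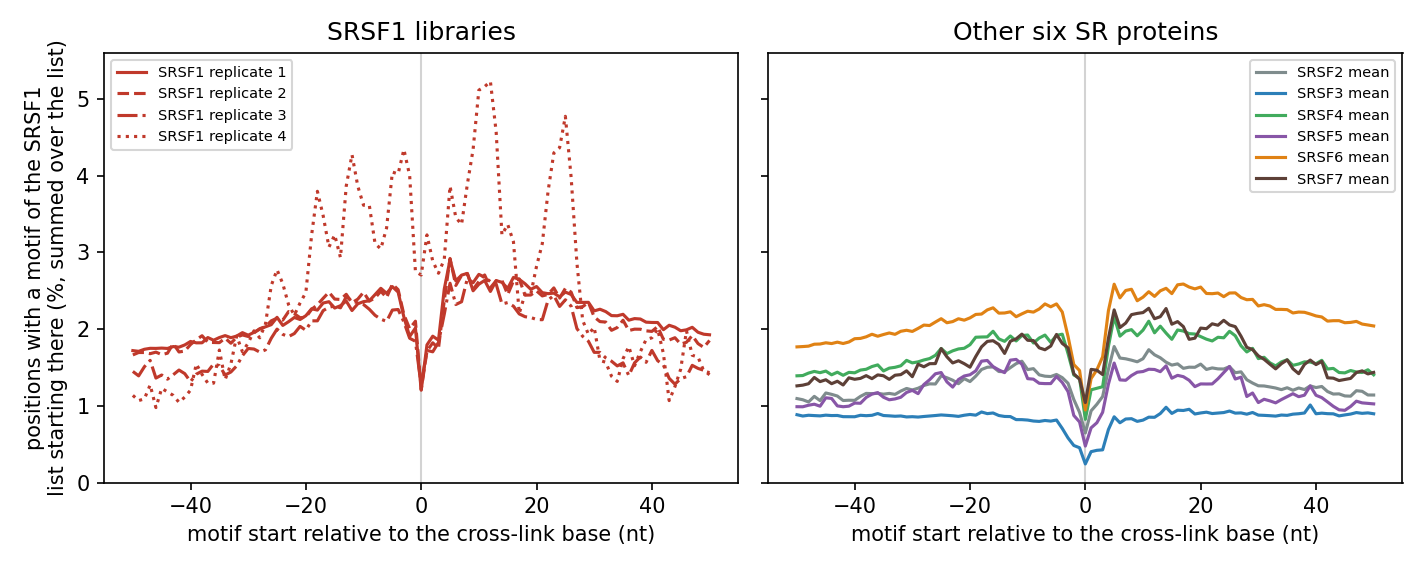
Percent of listed positions with an SRSF1 motif centred at a given distance, summed over the 6 motifs (vertical axis), against that distance from the cross-linked base in nt (horizontal axis). The left panel has 1 line per SRSF1 library and the right panel 1 line for the mean of each other protein. Distances are to the middle base of a motif, though the axis labels name its start. SRSF1 replicates 1 and 2 peak 5 nt downstream, at 2.90 and 2.92%.

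The same libraries were also compared over single binding regions. These hold the positions that gave the pentamer results, so their motifs are no separate support for those results. Clusters of all proteins merged within 30 nt gave 388969 regions, of which 6649 were tested. Of these, 689 (10.4%) were higher and 454 (6.83%) lower in SRSF1, with a median log2 difference of 0.01 over all tested regions. Scaling moved these counts: they were 203 and 157 with TMM factors (median -0.49), and 1345 and 624 with totals over coding genes (median 0.36). Of the higher regions 416 were at 0 in SRSF1 replicate 4. Of the lower regions 449 were at 0 in that replicate, and 190 were at 0 in all 4 SRSF1 libraries. A window of 31 nt was taken at the position with the most tags summed over all libraries in the fit, which need not be the strongest SRSF1 position. In it, 39.8% of the higher, 10.6% of the lower and 23.96% of all tested regions held an SRSF1 motif. In coding sequence the shares were 48.1, 12.4 and 31.7%. The trinucleotide GGA alone was in 60.4, 23.1 and 41.3% of windows. Among higher and all tested regions, AGGAG was in 19.01 and 6.24%, GGAGG in 18.6 and 5.43%, and GAGGA in 16.8 and 6.24%. The shares were closer for GGAGA (7.11 and 5.28%), GAAGA (10.6 and 9.10%) and AGAAG (8.85 and 7.73%). Regions made mostly of matching positions are included here, and their part in these motif shares was not tested. Regions in intergenic sequence were called higher in 16.4% and lower in 7.82%, those in noncoding exons in 11.3 and 1.64%, those in introns in 15.1 and 9.43%, and those in coding sequence in 7.53 and 6.76%. Leaving out the 2 SRSF2 libraries whose headers name SRSF1 gave 559 higher and 361 lower regions.

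The following windows illustrate sequences with and without a motif among the higher regions, as reference sequence of the mm9 build with the cross-linked base of the strongest SRSF1 position at base 15, and with the SRSF1 motifs in capitals. The first 3 are single-copy windows chosen because a motif follows the cross-link. That of SNORD113 has a motif before it as well. Other higher regions, such as those of Meg3 and Rian, had no motif in this window. They lie in a SNORD113 snoRNA (chr12:110874234-110874262, plus strand), in Malat1 (chr19:5801276-5801304, minus strand) and in the coding sequence of Slc2a3 (chr6:122682433-122682461, minus strand).
SNORD113: GAGGAGcatggggtttctgaccGAGGAca
Malat1: tttggtgaagctaggaaggactGAGGAGc
Slc2a3: aaccctgcatatgataggcctgGGAGGca
The next is a matching position in the Sltm intron (chr9:70402447-70402475, plus strand), with 5 exact copies in the genome, so the file cannot say which copy was bound.
Sltm: gcgcacgctggtaggatttgctgaAGGAG
The last 3 come from regions of at most 5 nt, in the 5′ UTR of Taf1c (chr8:122129039-122129067), the coding sequence of Sik2 (chr9:50816832-50816860) and outside genes (chr17:15280669-15280697), all on the minus strand. All end in the same letters after the cross-link, and only the Sik2 window holds an SRSF1 motif.
Taf1c: ggcactctggctcctttgcggccccgggg
Sik2: atcaccaagacGGAGGtgcggccccgggg
chr17: cttatctccttggggtttcagccccgggg

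Repeated sequences and very narrow regions were more frequent among the higher regions than among all tested. Matching positions made up over 50% of the tags in 134 of the 689 higher regions (19.4%), against 3.02% of all tested regions and 4 of the lower ones. The Sltm intron region was at 6581, 17761, 25448 and 19933 CPM in the SRSF1 libraries. It was at 275 to 17059 CPM in the others, with 10 of 24 above the lowest SRSF1 library. Regions of at most 5 nt were 58 of the higher calls (8.42%), 0 of the lower and 2.63% of all tested. Of these 58, 30 (51.7%) matched an annotated 5.8S rRNA gene in at least 14 of 20 bases, against 7 of 117 (5.98%) narrow regions that were not called; this minimum was chosen after the values were seen. The Sik2 region (chr9:50816845-50816847) was at 104, 451, 3405 and 4698 CPM and at 0 in 23 of the 24 others, and the Taf1c region (chr8:122129052-122129056) at 227, 1117, 5165 and 7248 CPM against at most 499. In both, the level was higher in each library with a lower total. That order held in 172 of the higher regions (24.96%), against 3.55% of all tested. Tags of the GFP control lay in 20.03% of the higher regions, 11.5% of all tested and 2.86% of the lower ones. The part of these values in the calls was not tested beyond the counts without matching positions, which were 834 higher and 442 lower regions, 559 and 431 of them shared with the calls above.

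Slc2a3, which encodes a glucose transporter, was the protein-coding gene in which every SRSF1 library exceeded every other. Its level was 1673, 1649, 1473 and 4832 CPM in the SRSF1 libraries, and 0 to 1420 CPM with a median of 346 in the other 24. The groups did not overlap, which held for 2 of the 6026 genes tested. The log2 difference was 2.96 ± 0.71 (SE, n = 4 and 24; adjusted p = 0.017), and adjusted p was 0.059 without SRSF1 replicate 4. Slc2a3 was outside the rule for named genes and was chosen after its values were seen. Of its 10 tested regions, 7 were higher, in 6 stretches of coding sequence and in the 5′ UTR, and 2 of these lost the call when 1 SRSF1 library was left out (adjusted p = 0.12 without replicate 1 and 0.069 without replicate 4). The coding region chr6:122682403-122682505 was at 96.7, 97.5, 46.0 and 0 CPM and at most 12.3 CPM elsewhere, a log2 difference of 3.83 ± 0.51 (adjusted p = 9.0e-06). The 5′ UTR region chr6:122692354-122692534 was at 104, 175, 92.0 and 336 CPM against at most 121, a difference of 2.70 ± 0.55 (adjusted p = 0.0013). Tested regions lay from the 5′ UTR to the 3′ UTR of the transcript. In the 29-nt windows at the strongest SRSF1 position of the higher regions, 1 of 7 held an SRSF1 motif.

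**Figure D3:**
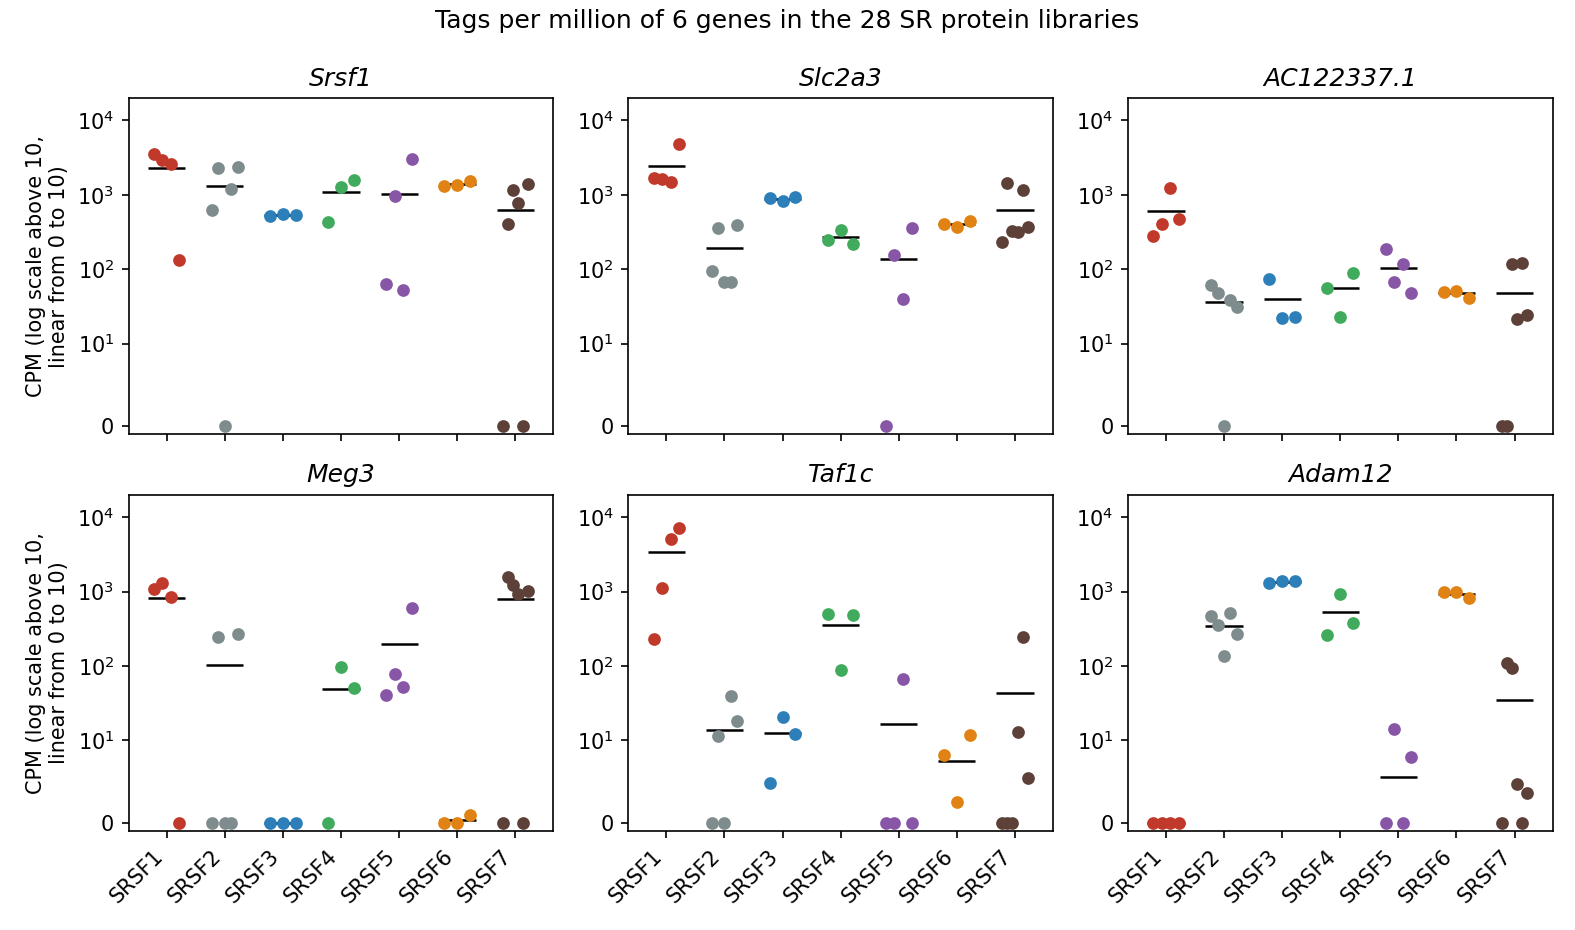
Level of 6 genes in CPM (vertical axes, linear from 0 to 10 and log above) in each of the 28 SR protein libraries, grouped by protein (horizontal axes), with 1 point per library and the mean of a protein as a line. For Slc2a3 the SRSF1 points lie between 1473 and 4832 CPM, above the highest other library at 1420 CPM, while Adam12 is at 0 in all 4 SRSF1 libraries.

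The other gene with all SRSF1 libraries highest was AC122337.1, an annotated microRNA gene on chromosome 12, at 279, 410, 1231 and 470 CPM against at most 184, a log2 difference of 3.46 ± 0.58 (adjusted p = 0.00067). At the level of regions, 6 of 6649 had every SRSF1 library above every other. These were the AC122337.1 region, the Sik2 and chromosome 17 regions shown above, a further narrow region on chromosome 17 (chr17:83732724-83732726), 1 on chromosome 14 (chr14:85739938, 1 nt) and 1 in the coding sequence of Adcy1, a brain adenylyl cyclase. The Adcy1 region (chr11:7061834-7061921) was at 61.1, 40.6, 104 and 134 CPM against at most 22.2, a log2 difference of 2.79 ± 0.47 (adjusted p = 0.00017). In replicate 4 its level was 2 tags.

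Several other genes had many higher regions although their gene total did not pass. Myh9, a non-muscle myosin heavy chain, had 10 of 13 tested regions higher, all in coding sequence, at 42.7 to 114 CPM in SRSF1 replicate 1 and 0 in replicate 4. In 7 of these regions replicate 3 was at 0 too, and 7 lost the call when 1 SRSF1 library was left out (adjusted p = 0.081 to 0.23). The mean of SRSF6 was above that of SRSF1 in all 10. Its gene total was 1577, 1271, 207 and 604 CPM with an adjusted p of 0.31, and SRSF6 had a mean of 999 CPM. Its relative Myh10 had 4 of 6 regions higher. Eif3a, a translation initiation factor subunit, had 4 of 18, Hnrnpa2b1, a splicing regulator, 4 of 12 and Lin28a, an RNA-binding protein of stem cells, 3 of 6. A region of Malat1, a long noncoding RNA of nuclear speckles, was at 8698, 10752, 5902 and 20469.8 CPM, a log2 difference of 2.29 ± 0.60 (adjusted p = 0.0088), while the whole Malat1 gene did not pass (adjusted p = 0.45). In that region the other libraries were at 131 to 20939 CPM, with 7 of 24 above the lowest SRSF1 library and 1 above the highest. These genes too were chosen by their counts of regions after the values were seen, and 10.4% of all tested regions were higher.

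Over whole genes, 155 of 6026 (2.57%) passed, 69 (1.15%) higher and 86 (1.43%) lower in SRSF1, with a median log2 difference of -0.55 over all tested genes. The counts were 77 and 133 with TMM factors and 210 and 330 with totals over coding genes. At an unadjusted p below 0.05 there were 1043. Without SRSF2 replicates 2 and 5 the counts were 51 and 51. Of the higher genes 29 were at 0 in SRSF1 replicate 4, and in 16 of the 69 (23.2%) matching positions made up over 50% of the tags, against 0.398% of all tested genes. Without matching positions 82 genes were higher and 90 lower, of which 53 and 82 were shared with the calls above.

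The 10 higher genes with the smallest p were led by a SNORD113 gene, a box C/D snoRNA of the imprinted Meg3 cluster on chromosome 12. It was at 617, 1409, 1944 and 0 CPM in SRSF1 and at most 21.8 CPM elsewhere, with 19 of 24 libraries at 0 (log2 difference 7.76 ± 0.79, adjusted p = 2.9e-08). Another SNORD113 gene (log2 difference 4.33) and the snoRNA AF357341 (3.96) of the same cluster were also higher, and also at 0 in replicate 4. Assignment among such near-identical copies is uncertain. Taf1c, a subunit of the RNA polymerase I initiation factor, was at 233, 1117, 5165 and 7248 CPM (6.77 ± 0.75, adjusted p = 1.3e-07), nearly all of it in the narrow 5′ UTR region above. Sik2, a salt-inducible kinase (5.11), Fgf9, a growth factor (5.96), Awat2, a wax ester synthase (4.94), Atg4c, an autophagy protease (3.69), and Antxr2, an anthrax toxin receptor (5.22), had levels that were likewise higher in each SRSF1 library with a lower total. The list also held AC122337.1. Against SRSF4 alone Awat2 had the opposite sign (-0.21).

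Of 12 tested long noncoding and snoRNA host genes, Meg3, Rian and Mirg were higher and 0 lower, with a list median of 0.33 against -0.55 over all genes. All 3 are maternally expressed noncoding RNAs of the same imprinted cluster. Meg3 was at 1092, 1308, 840 and 0 CPM in SRSF1, while the other libraries ranged from 0 to 1584 CPM with a median of 20.5 and 11 of 24 at 0. Levels in SRSF7 libraries reached that of SRSF1, with a mean of 793 CPM. The log2 difference was 4.87 ± 1.11 (adjusted p = 0.013), and 0.35 against SRSF7 alone (adjusted p = 0.88). Rian had a log2 difference of 3.84 ± 0.98 (adjusted p = 0.025) and Mirg of 3.95 ± 0.84 (adjusted p = 0.0069), and Rian had the opposite sign against SRSF7 alone (-0.30). Without SRSF1 replicate 1 the adjusted p rose to 0.090 for Meg3, 0.14 for Rian and 0.054 for Mirg. In such data stronger binding and more RNA in the line cannot be told apart.

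Of the 86 lower genes, 43 were at 0 in all 4 SRSF1 libraries, and 82 were at 0 in replicate 4. There 1 tag is 67.1 CPM, so a level of 0 says little for genes listed at lower levels elsewhere. Adam12, a membrane metalloprotease, was at 0 in all 4, against a median of 262 and a highest of 1380 CPM in the other 24, 4 of which were at 0 too. It was also low in SRSF5 (mean 5.58 CPM) and SRSF7 (35.2), and the higher means were in SRSF3 (1354), SRSF6 (932), SRSF4 (527) and SRSF2 (347). No fold is given against a group at 0; the test passed (adjusted p = 3.0e-05, and 0.0064 without SRSF1 replicate 1). Itga10, an integrin subunit, Srpr, a subunit of the signal recognition particle receptor, and Zmiz1, a transcriptional coregulator, were also at 0 in all 4. Magel2, an imprinted gene, was at 1.42, 0, 0 and 0 CPM against a median of 56.4, and H3f3b, which encodes histone H3.3, at 4.27, 16.2, 0 and 0 against a median of 153. Slc9a7, a sodium-proton exchanger, Dlc1, a tumour suppressor, and Sh2b1, a signalling adaptor, had tags in 1 SRSF1 library each, at 8.12 to 23.0 CPM. Of these 9 genes, Adam12 alone kept an adjusted p below 0.05 with each SRSF1 library left out in turn. For the other 8 it rose to between 0.080 and 0.24.

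The 10 lower regions with the smallest p were in introns of Itga10, Synpo2, Phc1 and Tas1r1, in coding sequence of Adam12, Huwe1, Magel2 and Bag6, and outside genes on chromosomes 13 and 2. Of these, 6 were at 0 in all 4 SRSF1 libraries. Without SRSF1 replicate 1 the regions of Huwe1, Bag6 and Tas1r1 lost the call (adjusted p = 0.11, 0.081 and 0.058). The chromosome 13 region (chr13:23362246-23362395) was at 14.2, 0, 80.5 and 0 CPM against a median of 198 in the others. Huwe1, a very long ubiquitin ligase transcript, had 6 of 53 regions lower and 3 higher, so calls of both signs lay in 1 gene. Of all tested regions 6.83% were lower and 10.4% higher, and the counts of single genes were not tested against these shares. Fasn, fatty acid synthase, had 4 of 5 regions lower, Nup153, a nuclear pore protein, 4 of 7, Kpna2, an importin, 3 of 3 and the RNA helicase Ddx5 3 of 9.

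Genes of RNA processing gave few calls, as did all tested genes, of which 1.15% were called higher and 1.43% lower. Against these shares, counts in such short lists say little about the lists. Of the list of known SRSF1 splicing targets, 12 were tested, 0 were higher and 1 was lower, with a median log2 difference of -0.84. The lower gene was Bcl2l11 (BIM), an apoptosis regulator, at 0, 12.2, 0 and 0 CPM against a median of 19.3 (-3.01 ± 0.82, adjusted p = 0.037, and 0.56 without SRSF1 replicate 1). The members with the highest SRSF1 level did not pass. Pkm2, pyruvate kinase, was at 1146, 906, 506 and 0 CPM (adjusted p = 0.58). Clk1, an SR protein kinase, was at 407, 231, 311 and 0 (adjusted p = 0.70), and Tead1, Rps6kb1 and Fn1 had adjusted p-values of 0.94, 0.87 and 0.67. The SR protein genes, whose transcripts are known to be regulated by SR proteins through poison exons, had a median of -1.48 with 0 of 12 called. Srsf7 came nearest, at 499, 418, 127 and 0 CPM (-2.08 ± 0.68, adjusted p = 0.085), in a contrast that includes the tagged SRSF7 lines. Srsf2, Srsf3, Srsf4, Srsf5, Srsf6 and Nxf1 had log2 differences of -2.24 to -0.59, and none passed. For all of these but Nxf1 the contrast likewise includes the line tagged for that gene. Srsf3, for example, was at -6.38 against SRSF3 alone and at -2.69 to -0.92 against each other protein.

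The remaining lists also held few calls. For splicing and RNA handling, 0 genes were called of 24 hnRNP genes (median -0.43), 30 core spliceosome genes (-0.30), 21 speckle and SR-related genes (-0.73) and 8 SR protein kinase genes (-1.11). The same held for 14 exon junction and NMD genes (-0.51), 9 mRNA export genes (-0.99) and 15 genes of 3′ end processing (-0.97). In translation, 0 of 27 translation factor genes (-0.24) and 0 of 73 ribosomal protein genes (-0.38) were called. Nor was any called of 53 replication-dependent histone genes (-0.18), 23 chromatin remodelling genes (-0.64), 12 tubulin and actin genes (-0.39), 19 chaperone and stress genes (-0.42) or 7 mitochondrial protein genes (-1.36). Of 11 pluripotency genes (-0.55) 1 was lower: Utf1, a chromatin factor of stem cells, at 0, 12.2, 0 and 0 CPM (-2.90 ± 0.81, adjusted p = 0.044, and 0.61 without SRSF1 replicate 1). These counts stand against 1.15 and 1.43% of all tested genes called higher and lower.

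The contrast depended on which protein SRSF1 was set against. Against SRSF3 alone, 253 pentamers were higher and 277 lower, with 157 and 662 genes and 1385 and 1257 regions. Against SRSF4 alone the counts were 8 and 1 pentamers, 3 and 7 genes, and 66 and 97 regions. The other 4 proteins lay between these for pentamers, with 32 and 49 against SRSF2, 76 and 134 against SRSF5, 47 and 76 against SRSF6, and 44 and 21 against SRSF7. These comparisons share the 4 SRSF1 libraries and differ in the number and size of the other libraries, so a low count does not show that a pair binds alike.

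**Figure D4:**
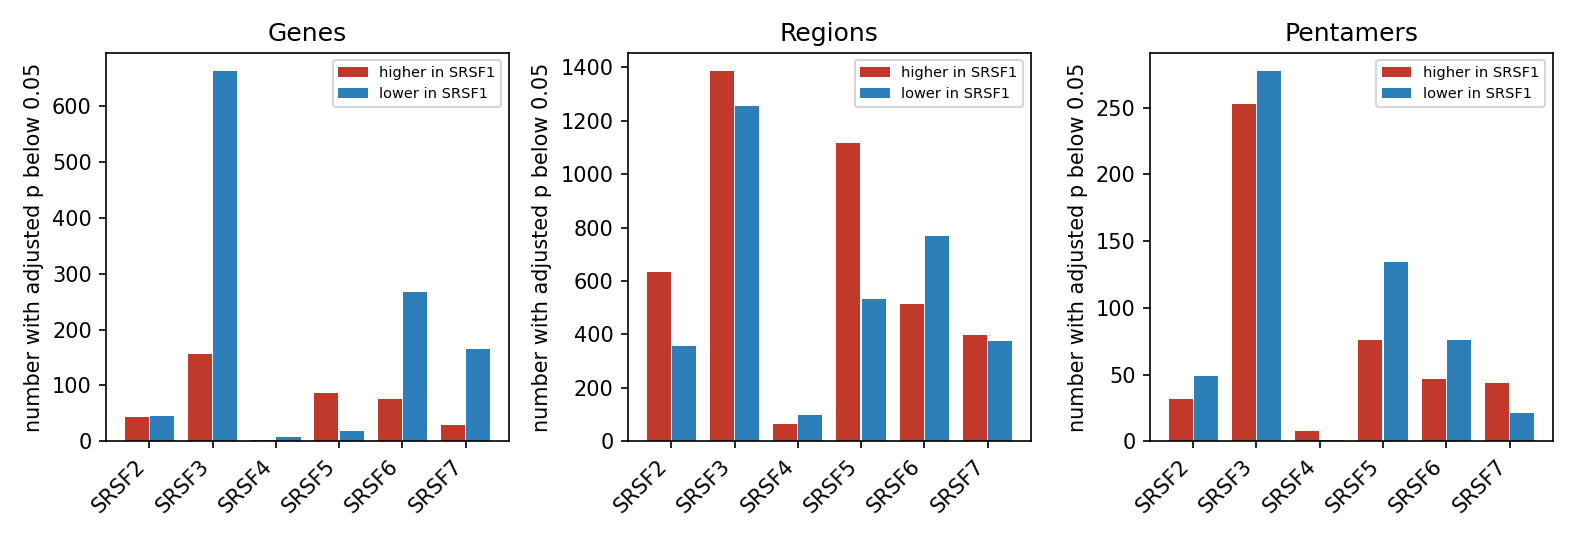
Number of pentamers, regions and genes higher and lower in SRSF1 at an adjusted p below 0.05 (bars, vertical axes from 0) against each of SRSF2 to SRSF7 alone (horizontal axes). SRSF3 gives the most pentamers, 253 higher and 277 lower, and SRSF4 the fewest, 8 and 1.

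Where in transcripts SRSF1 cross-linked did not set it apart. Coding sequence held 37.7, 22.5, 8.49 and 7.99% of the tags in SRSF1 replicates 1 to 4, and 2.81 to 52.8% in the other libraries. Intergenic sequence held 25.999, 37.7, 55.3 and 53.6%, and 13.6 to 67.1% in the others. Both spread over most of the range of the other libraries. The mean differences were -7.23 percentage points (exact permutation test, two-sided, 20475 splits, adjusted p = 0.71) and 11.1 points (adjusted p = 0.71). The shares in 5′ UTRs, 3′ UTRs, noncoding exons and introns had adjusted p of 0.71 to 0.73 in the same exact permutation test. Of tags in multi-exon coding transcripts, first exons held 9.14, 11.5, 22.1 and 20.9%, a difference of 4.28 points (exact permutation test, adjusted p = 0.78). Last and internal exons and the 30 nt at exon ends did not pass either. Coding shares tended to be lower in smaller libraries, with exceptions within SRSF2, SRSF5, SRSF6 and SRSF7. Among libraries with over 400000 tags, coding sequence held 37.7% for SRSF1 replicate 1 and a median of 40.3% over 13 others, and among those under 50000 tags 7.99% for replicate 4 and 8.95% over 5 others. Intergenic sequence was higher in SRSF1 in both of these ranges, at 25.999% against a median of 16.1% over the 13 and at 53.6% against at most 49.8% in the 5. In the ranges between these it was slightly below the median of the others. It was at 55.3% against 56.6% for 50000 to 150000 tags, and at 37.7% against 39.9% for 150000 to 400000 tags. The intron share of replicate 1 (8.13%) was below all 13 others (lowest 9.11%). With 1 SRSF1 library in a range, none of this was tested.

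**Figure D5:**
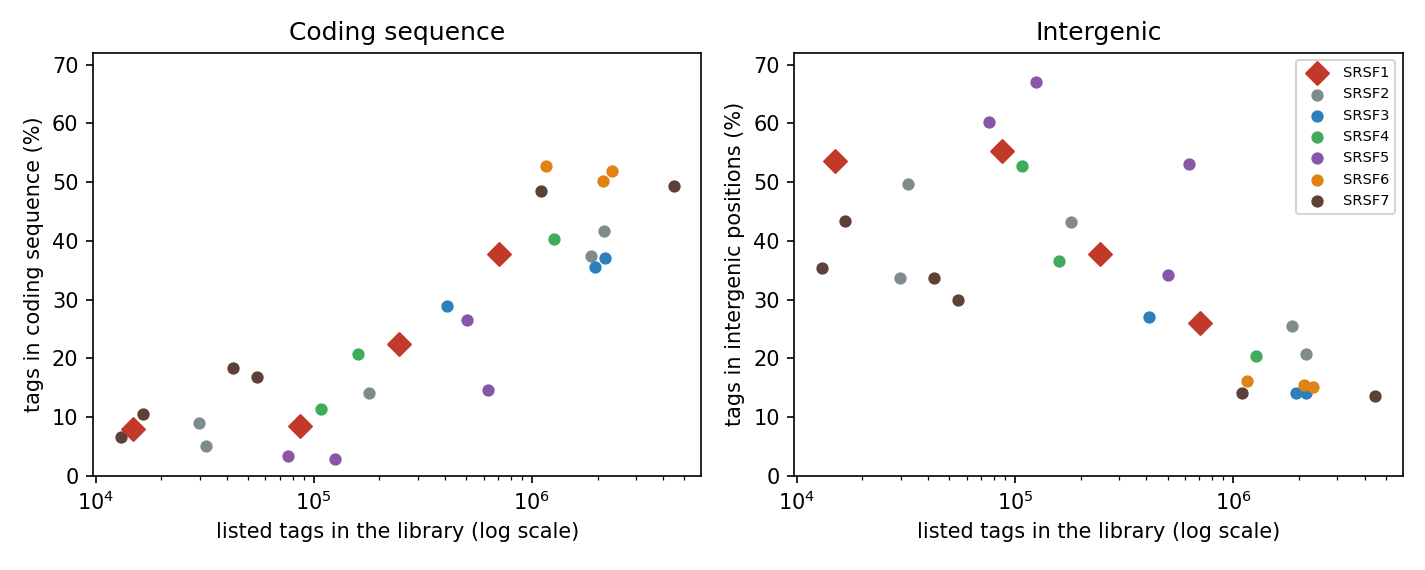
Percent of tags in coding (left) and intergenic (right) sequence (vertical axes) against the total tags of the library (horizontal axes, log scale), with 1 point per library, coloured by protein, and SRSF1 as diamonds. Coding sequence falls from 37.7% in the largest to 7.99% in the smallest SRSF1 library, alongside other libraries of like size.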

How the data were processed

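Samples were grouped by their titles. A deposited file holds, for each cross-link position, a signed score: per the file headers its size is the number of unique cDNAs and its sign the strand. The authors kept positions past a false discovery rate of 0.05 in each library, on mm9. The submitters' notes name CASAVA 1.4. No aligner is named there. Tags were summed per gene (GENCODE vM1, same build, 37310 genes) and per region, and divided by the library total to give CPM. Genes and regions with 42.1 CPM in 3 libraries and 15 tags in all were tested with limma voom (limma 3.58.1, R 4.3.3) in 1 fit of 31 libraries, as SRSF1 minus the mean of the other 6 protein means. A call is a Benjamini-Hochberg adjusted p below 0.05. Shares were compared by exact permutation tests over libraries.

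Named genes, regions and pentamers were the 10 with the smallest p in each direction, the tagged genes and called members of the lists, and for known SRSF1 targets the 5 of highest SRSF1 level. The members, lists and tests were chosen with earlier results of these data known. The scripts were tested on simulated data. The planned count models were not run, since the listed tags omit positions under the threshold. Sequences are from the mm9 genome. A lower gene among the 10 and a sequence window are not reported here.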

Additional observations from a re-analysis of the deposited data

Results flagged for a closer look

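In 14 of 109 values tested, 1 SRSF1 library stood far from the other 3 (Dixon's test for 4 values). The usual chance rate of this test, about 1 in 20, does not hold here. Where the other 3 libraries are at 0, any listed tag is flagged, and some of the values share tags or positions. In SRSF1 replicate 4, the library with the fewest tags, these were GAGGA near 17.3% of positions, AGGAC near 5.53%, AAGGA near 19.96% of positions, CAGGA near 18.5% and AGGAG near 27.6%, all above the other 3 libraries, and last exons with 15.5% of tags, below them. The other values were lower genes and regions with tags in 1 SRSF1 library and 0 in the rest. In replicate 1 this was Magel2 at 1.42 CPM, for the gene and for its coding region. In replicate 2 they were Dlc1 at 8.12 CPM and Bcl2l11, Utf1 and a coding region of Huwe1 at 12.2 CPM each. In replicate 3 they were Slc9a7 at 23.0 CPM and Sh2b1 at 11.5 CPM.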

How the results depend on the processing

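SRSF1 libraries limit these results: replicate 4 holds few tags, and replicate 1 weighs most on lower genes and regions. With each of the 28 SR libraries left out in turn, higher genes ranged from 20 to 91 and lower genes from 5 to 234, higher regions from 437 to 788 and lower from 86 to 584, and higher pentamers from 55 to 124 and lower from 26 to 194. Without SRSF1 replicate 1, 50 genes were higher and 5 lower, and 86 regions lower. Without replicate 2, 45 genes were higher, with 437 regions higher and 261 lower. Without replicate 3, 20 genes were higher and 21 lower, and 55 pentamers higher. Without replicate 4, 42 genes were higher and 36 lower, 274 regions lower, and 60 pentamers higher and 26 lower. Without SRSF2 replicate 4, 234 genes were lower, and without SRSF6 replicate 1, 57.

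Differences in shares over the same left-out libraries ranged, in percentage points, from -13.4 to -3.50 for coding sequence, -0.59 to 0.065 for 5′ UTRs, -2.70 to -0.81 for 3′ UTRs, 0.62 to 2.42 for noncoding exons, -5.01 to -0.77 for introns and 7.04 to 16.8 for intergenic sequence. For exons they ranged from 2.22 to 6.53 for first, -2.43 to 1.86 for internal and -4.36 to -2.34 for last exons, -0.79 to 1.90 near exon 5′ ends and -1.09 to -0.23 near 3′ ends. The 5′ UTR difference changed sign with each position counted once (0.30), without control clusters (0.075) and without matching positions (0.29). That of internal exons did so with each position counted once (2.10), without control clusters (0.43) and without SRSF2 replicates 2 and 5 (0.47). No share passed the test.

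With trimmed-mean (TMM) scaling 77 genes were higher and 133 lower, and 203 regions higher and 157 lower. With coding-gene totals 210 and 330 genes and 1345 and 624 regions were called. The median of all genes moved from -0.55 to -0.38 and -0.21, and of all regions from 0.01 to -0.49 and 0.36. With no minimum level 37 and 15 genes and 443 and 31 regions passed, and with limma-trend 12 and 2 genes and 117 and 15 regions, 85.7% and 88.6% of them higher. Among libraries of at least 50000 tags, 36 genes, 201 regions and 97 pentamers were lower. Counting tags instead of positions made 242 pentamers lower. Without SRSF2 replicates 2 and 5, 51 genes were lower. In the later header year alone 55 and 92 genes, 636 and 476 regions and 120 and 175 pentamers were called. The cause of these changes was not tested.

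Chosen after seeing the data, the later year without SRSF1 replicate 4 gave 145 lower genes and 90 lower pentamers. Without matching positions 77 pentamers were lower, and also without replicate 4, 51 genes, 301 regions and 38 pentamers were lower. Against single proteins the gene counts, higher and lower, were 43 and 46 (SRSF2), 157 and 662 (SRSF3), 3 and 7 (SRSF4), 86 and 19 (SRSF5), 76 and 268 (SRSF6) and 29 and 165 (SRSF7). Region counts were 1385 and 1257 (SRSF3), 66 and 97 (SRSF4), 1119 and 532 (SRSF5), 513 and 767 (SRSF6) and 399 and 376 (SRSF7). Pentamer counts were 32 and 49 (SRSF2), 253 and 277 (SRSF3), 8 and 1 (SRSF4), 47 and 76 (SRSF6) and 44 and 21 (SRSF7). Signs reversed for Awat2 against SRSF4 (-0.21), Rian against SRSF7 (-0.30), AGGAA (-0.030), GGAAG (-0.12) and GGAGA (-0.13) against SRSF6, and GGTGG against SRSF5 (-0.11).

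With the replicate number as a block, 47 genes were higher and 30 lower, 572 and 420 regions and 91 and 122 pentamers. The numbers did not pair the samples: the deviations of 24 same-numbered pairs correlated at -0.061 for genes and -0.064 for regions on average. The 2 count-model tests planned were not run, and the fit of the earlier header year was not possible, as it holds no SRSF1 library. Of the main counts and shares under all alternatives, 583 values stayed close to the value reported (shares within 1 SD and of the same sign), 68 moved and 14 changed sign. Of the named genes, regions and pentamers, 4303 values kept direction and side of the threshold, 268 fell below it, 26 passed it and 6 changed sign.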

Other observations

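The chromosome 12 interval from Meg3 to Mirg (chr12:110779211-110987665, plus strand), chosen after its values were seen, held 8 higher genes of 10 tested and 24 higher regions of 26 tested, and none lower. Of all tested genes 1.15% were higher, and of all tested regions 10.4%. Against single proteins, Meg3, Rian and Mirg passed only against SRSF3 and SRSF6, and genes and regions of the interval share tags. The regions of the interval summed to 3878, 4373, 4924 and 0 CPM in SRSF1 replicates 1 to 4. They summed to at most 4.89 CPM in SRSF3 and 4.25 CPM in SRSF6 libraries, while SRSF7 had a median of 2227 and SRSF5 of 1052 CPM. Of the SRSF2 libraries, replicates 2 and 5, whose headers name SRSF1, were at 1862 and 1844 CPM and the other 3 at 0.

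Tags in Y-linked genes, another set chosen after the values were seen, summed to 232, 48.7, 138 and 0 CPM in the SRSF1 libraries and to 0 in all SRSF3 and SRSF4 libraries. SRSF5 libraries held 48.1 to 498 CPM, SRSF7 0 to 153 and SRSF6 at most 9.44. Among SRSF2 libraries they were listed in the same replicates 2 and 5 and in no other. Binding and RNA level in each line cannot be told apart in either set.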
